A study of Homo sapiens with 12 samples.

Results

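The genes DUSP4, DUSP5, DUSP6, DUSP7, SPRY1, SPRY2, SPRY4, SPRED1, SPRED2 and SPRED3 encode negative feedback regulators of ERK signaling. They were chosen by gene symbol, with earlier results of these data known. All 10 were found among the 15798 genes of the count table. Ribosome footprints and input mRNA had been sequenced from HCT116, a colorectal cancer line of human origin, after 24 h with 100 nM trametinib, which blocks the ERK-activating kinases MEK1 and MEK2, or with DMSO as solvent control. Input and footprints of either treatment gave 4 groups of 3 libraries, numbered as replicates and described as biological replicates in the study's supplement, which does not say whether they were grown on separate days. All groups came from 1 cell line, 1 dose and 1 time point, all cells received cycloheximide for a few minutes before lysis, and footprints were taken from the monosomes of a sucrose gradient.

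When ERK is active, it induces genes whose products dampen the same pathway. Dual specificity phosphatases of the MAP kinase type (DUSP) remove the activating phosphates from ERK itself, DUSP6 and DUSP7 mainly in the cytoplasm and DUSP4 and DUSP5 in the nucleus. Sprouty proteins (SPRY) act upstream, below receptor tyrosine kinases, and the related SPRED proteins bring the RAS inactivator neurofibromin to the membrane. The mRNAs of several of these genes are widely used as a readout of ERK pathway output.

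Input libraries held from 2276693 to 2845568 reads inside open reading frames and footprint libraries from 10127477 to 19181588, so that input is the less precise of the 2 assays. Normalized counts are counts divided by the size factor of the library. The epithelial markers EPCAM, CDH1, KRT8, KRT18 and KRT19 were detected in every group, while CDX1 and VIL1 were at 0 in all input libraries. All 7 epithelial markers together took 5004 to 10130 CPM in DMSO and 8199 to 15053 in trametinib. CPM are counts scaled to a library total of a fixed size. Of the 5 tested ones, 3 were called higher in input by edgeR, beside 15.4% of all genes tested. Leukocyte markers took at most 1.32 CPM. Endothelial markers took 0.804 to 3.70 CPM in DMSO input and 8.89 to 10.1 in trametinib input, where VWF was higher (mean normalized counts of 9.42 in DMSO and 55.4 in trametinib, edgeR adjusted p = 0.00142). The 3 fibroblast markers in the table took 5.96 to 14.1 in DMSO and 20.7 to 32.5 in trametinib, with mean normalized input of COL3A1 at 0.720 in DMSO and 82.3 in trametinib. Their part in the results below was not tested. Of the 10418 tested genes with a mean of at least 20 normalized counts in DMSO input, 138 were at least 2-fold higher in DMSO replicate 1 than in both other DMSO replicates, in input and in footprints alike, against at most 1 gene for any other replicate of either treatment. DUSP5 was the only feedback gene among them, and its values without this replicate are given below.

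The sequences before the transcription start are shown for DUSP6 and SPRY4, the feedback genes with the steepest fall, and for SPRY2. SPRY2 fell less than DUSP6 and SPRY4, and its window held matches to both motifs marked below. RefSeq promoter sequences (GRCh38.p14) matched 8 of the 10 genes, all except DUSP4 and DUSP5, and the 250 bases before the start are printed 5′ to 3′ on the strand of the gene. They lie at chr12:89352502-89352751 for DUSP6, chr5:142324248-142324497 for SPRY4 and chr13:80341127-80341376 for SPRY2, all on the minus strand. The window of SPRY4 lies inside the longer Gencode v44 gene, whose start is further upstream than that of RefSeq. Capitals mark matches on either strand to CGGAA, the core bound by ETS factors, or TGACG, the half-site of the cAMP response element.

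DUSP6: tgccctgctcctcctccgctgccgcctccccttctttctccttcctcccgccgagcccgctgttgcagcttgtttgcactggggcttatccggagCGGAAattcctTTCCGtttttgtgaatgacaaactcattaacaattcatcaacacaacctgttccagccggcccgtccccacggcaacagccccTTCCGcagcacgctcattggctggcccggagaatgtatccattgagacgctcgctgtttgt

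SPRY4: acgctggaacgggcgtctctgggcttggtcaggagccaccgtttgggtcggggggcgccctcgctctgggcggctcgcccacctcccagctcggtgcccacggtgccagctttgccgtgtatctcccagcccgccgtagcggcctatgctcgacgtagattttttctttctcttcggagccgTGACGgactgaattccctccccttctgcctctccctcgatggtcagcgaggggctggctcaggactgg

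SPRY2: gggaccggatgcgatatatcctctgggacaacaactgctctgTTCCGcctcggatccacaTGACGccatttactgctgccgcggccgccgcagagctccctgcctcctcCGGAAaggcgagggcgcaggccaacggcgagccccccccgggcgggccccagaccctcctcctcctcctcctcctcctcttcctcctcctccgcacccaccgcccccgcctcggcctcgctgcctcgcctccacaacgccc

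Among the 8 promoters, CGGAA was found in those of DUSP6, with 3 matches, and SPRY2, with 2 matches, against 30.3% of all 35116 promoters. TGACG was found in those of SPRY2 and SPRY4, against 21.2% of all promoters. The AP-1 site TGANTCA was found in that of SPRED3 alone, against 6.57%. The longer ETS site CCGGAAG, the E-box CACGTG and the CArG box of serum response factor were in none of the 8 windows and in 8.52%, 6.34% and 1.16% of all promoters. The windows of DUSP7, SPRY1, SPRED1 and SPRED2 held no match to any of these motifs. The short ETS core was added after the longer one had given no match, and every CCGGAAG match also contains it. These letters describe the windows only.

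The first comparison asked how strongly the mRNAs of the feedback genes depended on MEK activity. After trametinib, input mRNA of DUSP6, SPRY4 and DUSP4 fell to between 0.473% and 2.29% of DMSO, that of SPRED2, DUSP5, SPRY2, SPRY1 and SPRED1 to between 13.6% and 33.2%, and that of DUSP7 to 47.8%. SPRED3 was at or near 0 in both treatments. In bulk samples, fewer cells expressing a gene and less RNA per cell cannot be told apart. In total, 9 of the 10 genes were called lower in input at an adjusted p-value under 0.05 (edgeR quasi-likelihood test), against 16.8% of the 10663 genes tested. The filter on low counts kept 9 feedback genes. Of these, 5 passed through their DMSO libraries, without 3 trametinib libraries of at least 10 counts. Their high level in DMSO was thus needed for them to be tested at all. Without any filter, 9 of 10 were called lower against 13.5% of 14553 genes. In 9 of 10 genes every trametinib input library was below every DMSO input library, as in 23.3% of the genes tested.

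**Figure D1:**
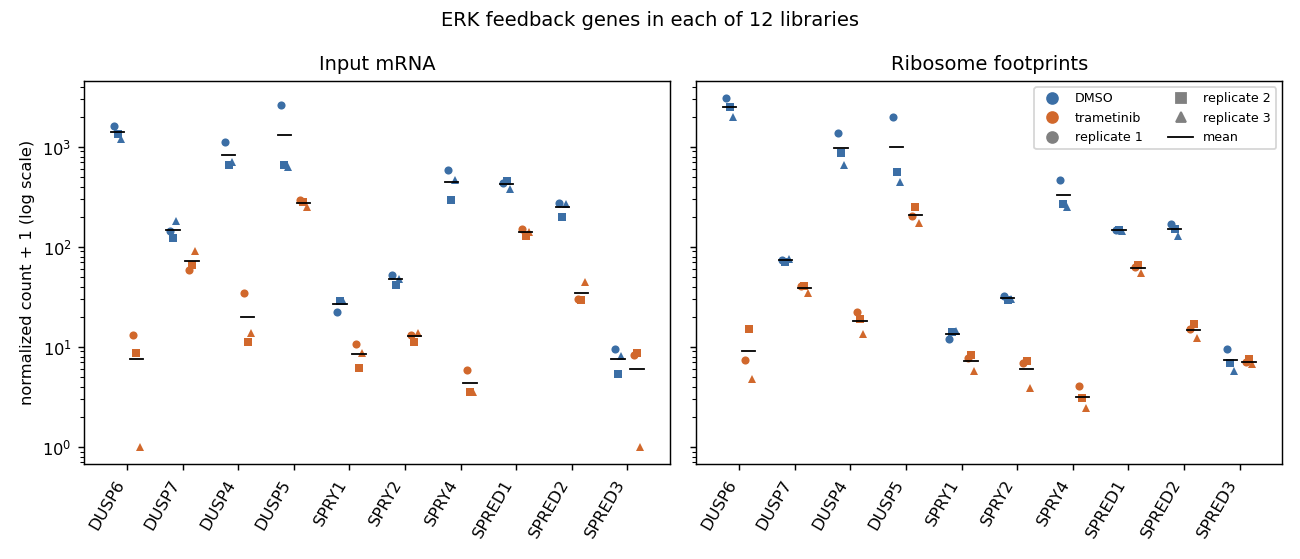
Normalized counts plus 1 (log scale) of the 10 feedback genes in each of the 12 libraries, for input mRNA and ribosome footprints, with DMSO in blue, trametinib in orange, marker shapes for replicates 1 to 3 and bars for group means (n = 3). DMSO and trametinib libraries are apart for all genes except SPRED3, whose libraries overlap in both assays.

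Among the phosphatases, DUSP6 (chromosome 12, 89347235 to 89352501, minus strand), which acts on ERK with high selectivity, had input counts of 748, 628 and 515 in DMSO and of 5, 3 and 0 in trametinib. Its footprints numbered 8273, 3833 and 5386 in DMSO and 21, 34 and 8 in trametinib. The lowest DMSO library thus exceeded the highest trametinib library by 100.2-fold in input and 142-fold in footprints, after normalization. The input change of DUSP6 was -7.63 on the log2 scale (SE 0.36, edgeR adjusted p = 3.31e-08), the lowest of all genes tested, and its footprint change was -8.27 (SE 0.38, adjusted p = 8.36e-07), also the lowest. Because the trametinib counts are so few, the 95% counting interval of the input ratio ran from 0.207% to 0.948% of DMSO. Over the fits that each left out 1 library, the input change ran from -8.38 to -7.09 and the footprint change from -8.87 to -7.98.

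DUSP7 (chromosome 3, 52048919 to 52056571, minus strand), a close relative of DUSP6, kept about 47.8% of its DMSO level in input. The input counts of DUSP7 were 66, 56 and 77 in DMSO against 24, 25 and 35 in trametinib. In footprints these were 200, 107 and 201 against 128, 96 and 71 counts. The normalized values did not overlap in either assay, although the lowest DMSO input library was 1.34-fold above the highest trametinib library. The changes of DUSP7 were -1.05 in input (SE 0.26, edgeR adjusted p = 0.00706) and -0.95 in footprints (SE 0.14, adjusted p = 7.99e-04).

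DUSP4 (chromosome 8, 29333064 to 29350684, minus strand) encodes a nuclear phosphatase of ERK and other MAP kinases. Its input counts were 517, 301 and 304 in DMSO and 14, 4 and 5 in trametinib. Footprints of DUSP4 numbered 3736, 1320 and 1773 in DMSO and 70, 44 and 26 in trametinib. DMSO replicate 1 was the highest library in both assays, at 1.64 times the mean of the other DMSO libraries in input and 1.82 times in footprints. DUSP4 changed by -5.40 in input (SE 0.35, edgeR adjusted p = 2.30e-07) and by -5.77 in footprints (SE 0.34, adjusted p = 3.25e-06). Leaving out 1 library at a time gave input changes from -6.11 to -5.11.

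DUSP5 (chromosome 10, 110497907 to 110511533, plus strand) encodes a nuclear phosphatase that also anchors ERK there. It was the feedback gene with the largest spread between DMSO replicates relative to its mean. Its input counts were 1223, 301 and 268 in DMSO and 122, 108 and 96 in trametinib. Its footprint counts were 5385, 850 and 1211 in DMSO and 660, 605 and 366 in trametinib. DMSO replicate 1 thus held 4.13 times the mean normalized input and 3.97 times the mean normalized footprints of the other DMSO replicates. The changes were -2.25 in input (SE 0.46, edgeR adjusted p = 0.00254) and -2.26 in footprints (SE 0.52, adjusted p = 0.00652). Without DMSO replicate 1 they were -1.22 (adjusted p = 1.69e-05) and -1.25 (adjusted p = 8.06e-06), so that the remaining level in trametinib input was 42.7% of DMSO in place of 20.9%. Of all 10 feedback genes, DUSP5 had the most normalized counts left in trametinib, with 273 ± 23.8 normalized counts in input and 208 ± 37.6 in footprints (SD, n = 3).

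**Figure D2:**
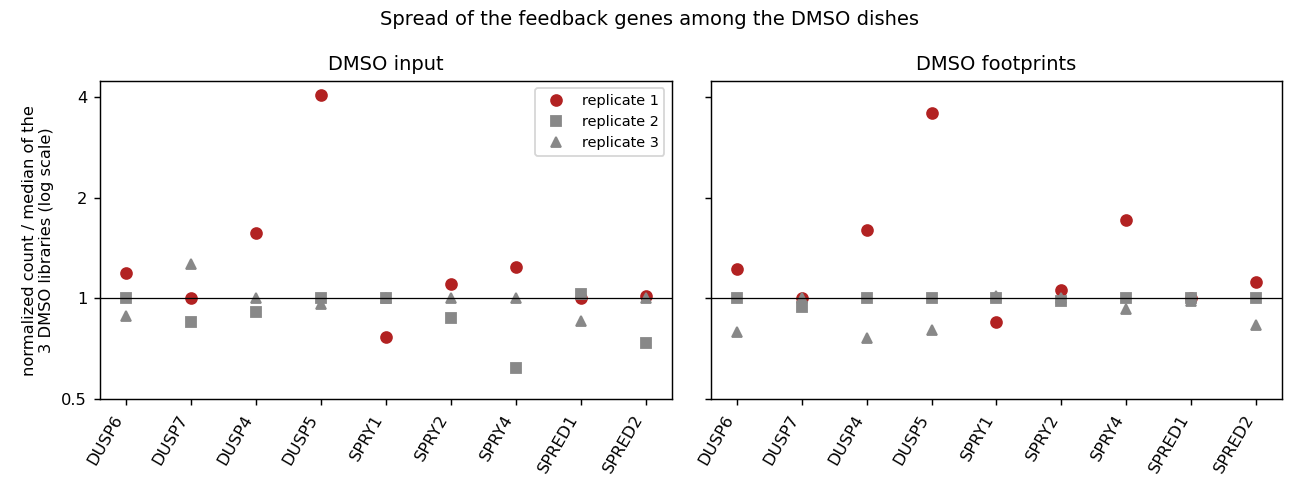
Normalized count of each tested feedback gene in the 3 DMSO libraries, divided by the median of the 3 (log scale), for input and footprints. Replicate 1 (red) lies far above the other replicates (gray) for DUSP5 in both assays and less far above them for DUSP4, SPRY4 and DUSP6, while it lies below them for SPRY1.

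The Sprouty genes differed widely in level and in response. SPRY4 (chromosome 5, 142310427 to 142326455, minus strand) had input counts of 271, 135 and 201 in DMSO and of 2, 1 and 1 in trametinib. Its footprints numbered 1255, 413 and 677 in DMSO and 10, 5 and 3 in trametinib. No trametinib input library held more than 3 counts of SPRY4, with 4 counts in total, so that the ratio to DMSO was 0.748% with a 95% counting interval from 0.203% to 1.92%. With every trametinib library set to the floor of 3 counts, SPRY4 input was 59.5-fold lower than in DMSO. The fitted changes were -6.94 in input (SE 0.44, edgeR adjusted p = 1.75e-07) and -7.13 in footprints (SE 0.38, adjusted p = 1.72e-06), the second lowest and the third lowest of all genes tested, of which the input value depends on how so few counts are handled and was -5.77 in limma.

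SPRY2 (chromosome 13, 80335976 to 80341126, minus strand), a Sprouty member that binds GRB2 and the ubiquitin ligase CBL, was expressed at a much lower level. The input libraries held 24, 19 and 20 counts in DMSO and 5, 4 and 5 in trametinib. Its footprint counts were 84, 44 and 79 in DMSO and 19, 15 and 6 in trametinib. The treatments were clearly apart in both assays, with changes of SPRY2 of -1.95 in input (SE 0.36, edgeR adjusted p = 0.00121) and -2.53 in footprints (SE 0.26, adjusted p = 9.59e-05).

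SPRY1 (chromosome 4, 123396795 to 123403760, plus strand) was the weakest detected Sprouty gene, with input counts of 10, 13 and 12 in DMSO and of 4, 2 and 3 in trametinib. Its footprints fell from 30, 20 and 36 counts to 22, 18 and 10, which did not overlap after normalization. The changes of SPRY1 were -1.73 in input (SE 0.46, edgeR adjusted p = 0.0106) and -0.95 in footprints (SE 0.26, adjusted p = 0.0135). The input call of SPRY1 was lost with DESeq2 (adjusted p = 0.0590) and without trametinib replicate 2 (edgeR adjusted p = 0.0502).

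Of the SPRED genes, SPRED2 (chromosome 2, 65310851 to 65432637, minus strand) fell most. Its input counts were 127, 92 and 115 in DMSO and 12, 11 and 17 in trametinib. Its footprint counts were 461, 232 and 342 in DMSO and 46, 39 and 24 in trametinib. In both assays the groups were far apart, with changes of SPRED2 of -2.86 in input (SE 0.26, edgeR adjusted p = 4.33e-06) and -3.41 in footprints (SE 0.20, adjusted p = 2.86e-06).

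SPRED1 (chromosome 15, 38252836 to 38357249, plus strand), whose loss causes a RAS pathway syndrome in humans, kept about 33.2% of its DMSO level in input. Input counts of SPRED1 were 203, 209 and 160 in DMSO and 63, 50 and 54 in trametinib. Footprints numbered 399, 225 and 392 in DMSO and 201, 157 and 112 in trametinib. Its DMSO footprints were the most uniform of all feedback genes, at 146 ± 1.33 normalized counts (SD, n = 3). SPRED1 changed by -1.58 in input (SE 0.17, edgeR adjusted p = 2.23e-05) and by -1.28 in footprints (SE 0.13, adjusted p = 1.02e-04).

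SPRED3 (chromosome 19, 38388421 to 38399587, plus strand) was hardly expressed in these cells. Its input counts were 4, 2 and 3 in DMSO and 3, 3 and 0 in trametinib, too few for a fold change. Its footprint counts were 23, 9 and 13 in DMSO and 20, 16 and 12 in trametinib, and the treatments overlapped in both assays. SPRED3 passed only the filter that accepts libraries of either kind, where its footprint change was -0.07 (SE 0.32, edgeR adjusted p = 0.871).

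Per kilobase of coding sequence (union of the Gencode v44 coding exons of the gene), the order of the levels in DMSO input was DUSP6, DUSP5, DUSP4, SPRY4, SPRED1, SPRED2, DUSP7, SPRY2, SPRY1 and SPRED3. DUSP6 stood at 1192 ± 176 and SPRED3 at 4.33 ± 1.41 normalized counts per kilobase (SD, n = 3). From DUSP6 down to SPRED1, the libraries of neighbours in this order overlapped, and from SPRED1 down they did not. In DMSO footprints DUSP6 led with 2149 ± 455 and SPRED3 was again last with 4.14 ± 1.23 (SD, n = 3), while the libraries of DUSP6 and DUSP5, DUSP5 and DUSP4, and SPRED2 and SPRED1 overlapped. Measured against the genes tested that have a coding length, DUSP6 was at percentile 94.5 of this level in DMSO input and at percentile 0.689 in trametinib input. SPRY4 moved from percentile 83.9 to 0.227 and DUSP4 from 88.4 to 3.99, while DUSP5 was still at 70.8 and SPRED1 at 44.8 in trametinib. Together the 10 genes took between 650 and 1122 CPM in DMSO input and between 92.7 and 102.6 in trametinib input. In footprints this share was between 553 and 1083 CPM in DMSO and between 50.7 and 71.7 CPM in trametinib.

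Next, the footprints on these mRNAs were compared, scaled between libraries. Such values are relative to other mRNAs and give no number of ribosomes. All 9 genes lower in input were also called lower in footprints (edgeR adjusted p-value under 0.05), against 25.6% of the genes tested, and against 19.2% when no filter was applied. Every trametinib footprint library was below every DMSO footprint library in 9 of 10 genes, as in 30.3% of the genes tested. The median change of the 9 tested genes was -2.25 in input and -2.53 in footprints, beside medians of 0.00 and -0.01 over all genes tested. Scaling by library totals moved the median footprint change of all genes to 0.16 and the share of higher genes among all footprint calls from 48.3% to 64.8%, with the same number of feedback genes lower.

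**Figure D3:**
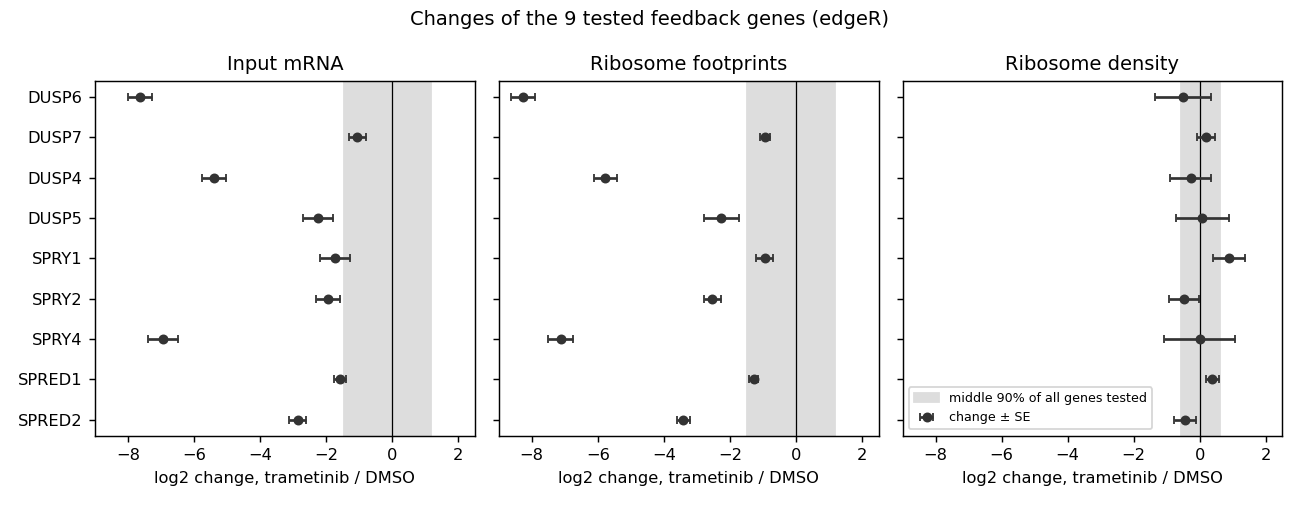
Log2 change of trametinib over DMSO for the 9 tested feedback genes in input, footprints and ribosome density, as points with the SE, on the same axis. The gray band holds the middle 90% of all genes tested. DUSP6, SPRY4 and DUSP4 lie far to its left in input and footprints, and the SE of every ribosome density change reaches into or lies within its band.

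Whether these mRNAs also changed in translation relative to other mRNAs was asked with ribosome density. It sets footprints of a gene against its input mRNA, and a change common to all mRNAs is not seen in it. None of the 9 tested genes, a count of 0, was called in either direction by the edgeR test of the interaction of assay and treatment, against 0.91% of all genes tested. The unadjusted p-value was under 0.05 for 0 of the 9 as well, and limma called 0, as did DESeq2, whose independent filter gave no adjusted p-value for SPRY1 and SPRY2. The estimates ran from -0.51 for DUSP6 to 0.89 for SPRY1. The 95% intervals ran from -0.04 to 0.80 for SPRED1, the narrowest, and from -2.30 to 2.28 for SPRY4, the widest. The interval of DUSP6 ran from -2.31 to 1.29.

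In DMSO the feedback genes differed in ribosome density among themselves. Footprints per input, in normalized counts, were 1.89, 1.84 and 1.65 in the 3 DMSO dishes for DUSP6 and 0.336, 0.325 and 0.386 for SPRED1. These correspond to percentile 81.9 and percentile 7.71 of the genes tested, whose median ratio was 1.02. DUSP4 followed DUSP6 at 1.16 ± 0.212, while SPRY1 at 0.483 ± 0.0259 and DUSP7 at 0.502 ± 0.0837 were near SPRED1 (SD, n = 3 dishes). DUSP5 is of interest because its dishes differed so much in level. Its ratio was 0.752, 0.851 and 0.711 in DMSO, with replicate 1 between the others, and 0.691, 0.894 and 0.705 in trametinib. When input and footprints from the same numbered sample were treated as a pair (a block per dish), the SE of the ribosome density change of DUSP5 was 0.17 in place of 0.80 and the change was 0.05 (edgeR adjusted p = 0.943).

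SPRY1 had the highest estimate in ribosome density. Its ratio was 0.512, 0.464 and 0.472 in DMSO and 0.702, 1.44 and 0.617 in trametinib, where the input libraries held 4, 2 and 3 counts. The change of 0.89 (SE 0.48, edgeR adjusted p = 0.703) rests on 9 input counts over the 3 trametinib libraries. SPRY2 and SPRED2 had estimates of -0.48 (SE 0.45) and -0.46 (SE 0.33) with adjusted p-values of 0.888 and 0.780, and their dishes overlapped between treatments.

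**Figure D4:**
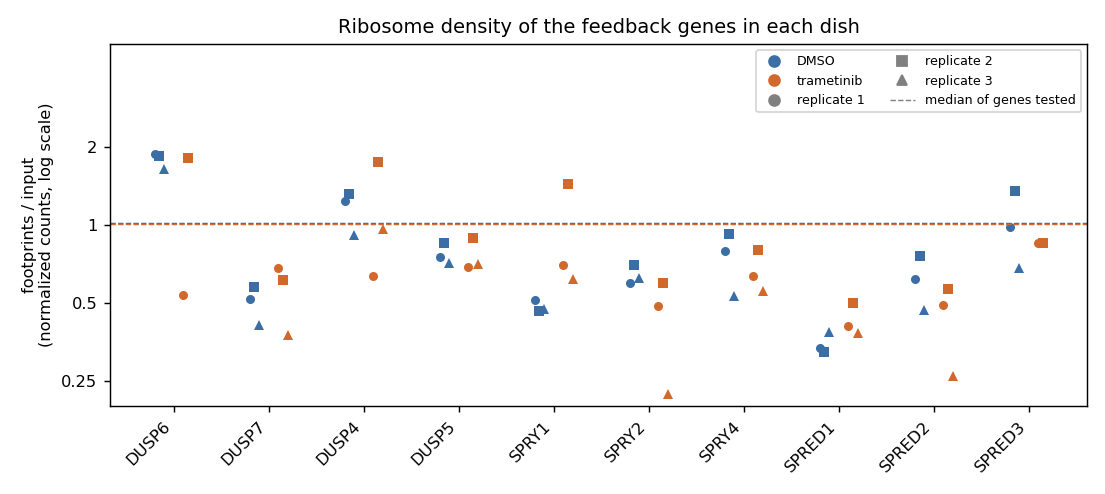
Footprints per input (normalized counts, log scale) of the 10 feedback genes in each dish, with DMSO in blue, trametinib in orange and dashed lines for the median of the genes tested in each treatment. DUSP6 is near 1.8 in all DMSO dishes and SPRED1 near 0.35, and the trametinib dishes scatter more widely. DUSP6 and SPRED3 have no point for trametinib replicate 3, where the input count was 0.

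To place the feedback genes in their pathway, related gene lists were compared in the same way. The other MAP kinase phosphatases (DUSP1, DUSP2, DUSP8, DUSP9, DUSP10 and DUSP16) were described first. In input 0 of these 6 were called lower by edgeR, DESeq2 or limma, beside 16.8% of all genes in edgeR. The unadjusted p-value was under 0.05 for 1 of them, and the median change of the list was 0.26. DUSP10, which acts on the stress kinases JNK and p38, was higher with an input change of 1.95 (SE 0.41, edgeR adjusted p = 0.00276), against 15.4% of all genes called higher. In footprints 2 were lower and 2 higher, against 25.6% of all genes called lower and 23.9% called higher. The lower ones, named after their values were seen, were DUSP1 with a footprint change of -1.43 (SE 0.47, adjusted p = 0.0313) and DUSP2 with -1.28 (SE 0.19, adjusted p = 6.20e-04). Their input values were 94.9 and 65.9 normalized counts in DMSO and trametinib for DUSP1, and 65.2 and 49.4 for DUSP2. Neither gene was called in ribosome density (edgeR adjusted p = 0.832 for DUSP1 and 0.385 for DUSP2). For DUSP1, DMSO replicate 1 held 2.19 times the mean input and 2.96 times the mean footprints of the other DMSO replicates. No change of DUSP1 without that replicate is given here.

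Of the 10 atypical dual specificity phosphatases, which lack the ERK-binding part of the MAP kinase phosphatases, 7 were tested and 1, DUSP12, was lower in input, with a change of -1.09 (SE 0.18, edgeR adjusted p = 5.88e-04), beside 16.8% of all genes. In footprints 2 were lower and 1 higher, beside 25.6% and 23.9%. Of the 12 partners of Sprouty and SPRED proteins and of RAS activation, 1 was lower and 3 higher in input, beside 16.8% and 15.4%. In footprints 1 was lower and 5 were higher, beside 25.6% and 23.9% of all genes. The lower one was SIAH2, a ubiquitin ligase that targets Sprouty proteins, with an input change of -1.13 (SE 0.17, adjusted p = 3.09e-04). The highest were GAB1, a receptor adaptor, with 1.19 (SE 0.31, adjusted p = 0.0102) and CBLB, a ubiquitin ligase of receptors, with 0.94 (SE 0.20, adjusted p = 0.00382).

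The other ERK-responsive genes were mostly lower. Of 12 genes, 11 were lower in input and 11 in footprints, beside 16.8% and 25.6% of all genes tested. The median change was -3.38 in input and -3.32 in footprints. The lowest input changes were those of the ETS factor ETV5, at -6.39 (SE 0.54, edgeR adjusted p = 1.95e-06), and of the receptor EPHA2, at -6.01 (SE 0.35, adjusted p = 1.07e-07). The 1 higher gene was the receptor EPHA4, at 1.21 (SE 0.34, adjusted p = 0.0162). FOSL1 and ERRFI1 of this list, named after their values were seen, were, like DUSP5, among the 138 genes higher in DMSO replicate 1, with 2.63 and 3.32 times the mean input of the other DMSO replicates. These genes are known ERK targets, so their direction is no independent evidence, and the list was chosen with earlier results of these data known.

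**Figure D5:**
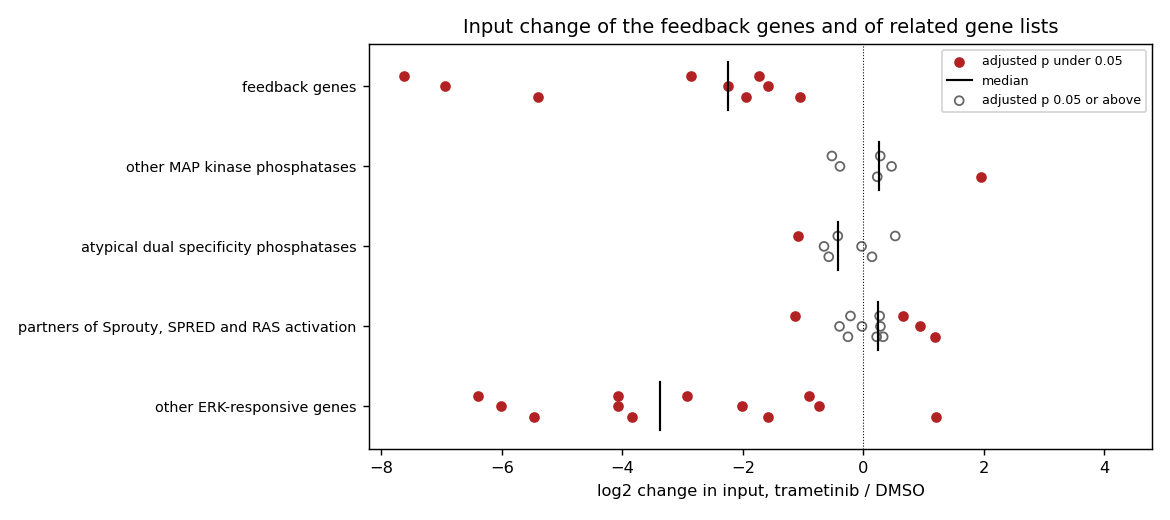
Log2 input change of trametinib over DMSO for the tested feedback genes and for 4 related lists, 1 point per gene, filled red where the edgeR adjusted p-value was under 0.05 and open otherwise, with the median of each list as a bar. The feedback genes and the other ERK-responsive genes lie mostly below 0, and the other MAP kinase phosphatases lie on both sides of 0.

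The genes most like the feedback genes over the 12 libraries were sought by the correlation of log2 CPM with the mean profile of the 9 tested feedback genes, each scaled to the same mean and SD. DUSP12, E2F7, TIAM1, IQGAP3 and HAS3 had the highest Pearson's r of all other genes, from 0.985 to 0.977. With 2 treatments dominating the profile, such values are common, and 81 genes were above 0.95. E2F7 went from 240 ± 28.1 to 16.8 ± 1.28 normalized counts in input and DUSP12 from 274 ± 21.4 to 128 ± 4.44 (SD, n = 3). Of the feedback genes themselves SPRED2 was closest to the mean profile (r = 0.989) and DUSP5 farthest from it (r = 0.861). Each of the 9 is part of this mean, which raises its r, so these values cannot be set against those of other genes.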

How the data were processed

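Input RNA and ribosome footprints were measured in 12 libraries of HCT116 cells, grouped by their labels. After adapter trimming and removal of rRNA and tRNA reads, the authors mapped reads with Bowtie 1.2.2 to the basic set of Gencode V38 (GRCh38) and counted 25-35 nt reads in open reading frames of 1 gene symbol. The deposited table holds these raw counts and, as a signal per library, the same counts divided by DESeq2 size factors (normalized counts). Columns with the authors' own comparisons (fold changes, p-values) were left out. Gene coordinates and coding lengths were taken from Gencode v44 on the same genome build.

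A gene was tested if 3 or more input libraries held 10 or more counts of it (10663 of 15798). Counts were fitted with edgeR 4.0.16 (R 4.3.3, TMM scaling, quasi-likelihood F test, Benjamini-Hochberg adjustment), within the 6 libraries of each assay, and over all 12 libraries for the interaction of assay and treatment. The SE of edgeR is the size of the log2 change before its shrinkage for low counts, divided by the square root of F. The procedure was tested on simulated counts with known changes. A log2 change of 1 was recovered for 72% of changed genes in input, 89% in footprints and 50% in ribosome density. For a log2 change of 2 these shares were 100%, 100% and 98%. Of all calls, 5.73% to 7.03% were false, depending on the comparison. The changed genes were drawn from genes with more input counts than DUSP7, SPRY1, SPRY2 and SPRED3 had. Their simulated level pooled both treatments, so counts as few as those of DUSP6 and SPRY4 in trametinib input were not covered. Scaling between libraries hides any change common to all mRNAs. Counting intervals cover counting error only. DESeq2 1.42.0, limma 3.58.1, other scalings and filters, blocks and leaving out each library were alternatives. The feedback genes were named throughout, and of each related list at most 2 genes with the lowest and 2 with the highest input change among those called. DUSP1, DUSP2, FOSL1 and ERRFI1 fall outside this rule. A further gene list that was fitted is not reported here. Members and lists were chosen with earlier results of these data known.

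Input and footprints came from the same lysate per the methods. Deviations of the input and footprint libraries of equal treatment and number had Pearson's r of 0.816, 0.181 and 0.343 for DMSO, and r of 0.141, 0.0803 and -0.122 for trametinib, across 7669 genes.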

Additional observations from a re-analysis of the deposited data

How the results depend on the processing

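Of 423 values of single feedback genes under the alternatives, 404 kept their direction and side of the threshold. The 2 calls lost were those of SPRY1 in input, with DESeq2 (change -1.78) and without trametinib replicate 2 (-1.54), and no call was reversed. The ribosome density estimates, none of them called, changed sign in 17 cases. Over the models that each left out 1 library they ranged from -1.12 to 0.24 for DUSP6, from -0.015 to 0.35 for DUSP7, from -0.61 to 0.41 for DUSP4, from -0.96 to 1.08 for DUSP5 and from -0.41 to 0.34 for SPRY4. For SPRY4 the estimate also became 0.10 with library totals, 0.12 with limma and 0.07 without the DMSO dish of replicate 1, an alternative chosen after seeing the data. The number of all genes called in ribosome density was 97 and became 187 with DESeq2, 158 with a replicate block for each dish and 150 without that dish, and ranged from 50 to 113 when 1 library was left out. With library totals the median ribosome density change of all genes was 0.18 in place of 0.07, and 25.7% in place of 10.3% of these calls were higher. The cause of these differences was not tested. With the replicate number as a block, 9 feedback genes were lower in input, 9 in footprints and 0 changed in ribosome density, and neither kind of replicate block changed a call of a feedback gene. Deviations of libraries with the same number in both treatments correlated at 0.0680, 0.0484 and 0.334 in input. In footprints these correlations were 0.117, 0.133 and 0.294. Such values alone do not show whether equal numbers were paired across treatments. Ribosome density is limited by depth, since trametinib input held 4 counts of SPRY4, 8 of DUSP6, 9 of SPRY1 and 6 of SPRED3. A block for each dish lowered its SE for DUSP5 (0.80 to 0.17), DUSP4 (0.62 to 0.37), DUSP6 (0.84 to 0.57) and SPRY4 (1.07 to 0.81). The same block raised it for SPRY1 (0.48 to 0.56), SPRY2 (0.45 to 0.50), SPRED1 (0.195 to 0.207), SPRED2 (0.33 to 0.35) and DUSP7 (0.280 to 0.283).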
